A study of Glycine max with 15 samples.

Results

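The comparison set soybean seedlings given a high dose of brassinolide for 8 h against seedlings given a low dose, both under an inhibitor of brassinosteroid synthesis. Of the 15 RNA sequencing libraries in the series, 6 belong to these groups: 3 of Pcz-BL-8h (5 mM propiconazole, Pcz, with 1 mM brassinolide, BL, for 8 h) and 3 of Pcz-lowBL (BL at 10 nM together with the same dose of Pcz). Mock-treated seedlings were the control of both, and 2 further groups received Pcz alone or Pcz and then the high dose of BL for 1 h. All were Glycine max, cultivar Williams 82, aged 10 days at vegetative stage 1, treated by irrigation and collected as seedlings. Doses are printed with the units of the labels. The mM values are high for these compounds, and whether the unit is right could not be checked. The groups differ in BL dose, in when BL was added and in how long it acted, so these 3 factors cannot be told apart, and none of the groups had a mock addition at 8 h. Seedlings hold many cell types, and fewer cells of a type cannot be told apart from less RNA per cell.

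The authors deposited 1 pooled expression value per group and table, in FPKM (fragments per kilobase of transcript and per 1000000 fragments), so the spread between the 3 libraries of a group cannot be shown. Of 54175 gene IDs, 33405 reached 1 FPKM in at least 1 of 4 columns, namely Pcz-BL-8h, Pcz-lowBL and the control column of each table. For these genes the difference was taken as the log2(FPKM + 1) change from control in Pcz-BL-8h minus that in Pcz-lowBL. The pseudocount of 1 makes it smaller for genes of low level. The control columns of the 2 tables were almost proportional. Their ratio, table Pcz-BL-8h over table Pcz-BL, had a median of 0.829, and the SD of its log2 over genes was 0.00871. Control therefore nearly cancels, and the difference is close to a ratio of the 2 treated groups after that scaling.

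Which treatment each table holds is uncertain. Tables are assigned here by sheet name, which the sample labels cite. All 3981 and 2478 genes of the authors' short lists for these groups carry the fold change found under the matching sheet name (within 0.001). That match ties the short lists and the full tables to the same names, but it cannot show that the names are right. The column headers say otherwise. Within the sheet Pcz-BL-8h, the treated columns are headed Pcz-BL. Within the sheet Pcz-BL, taken here as Pcz-lowBL, they are headed Pcz-BL-1h. By headers, the high-dose 8 h group would be in the sheet Pcz-BL-1h and the low-dose group in the sheet Pcz-BL-8h. Every statement below on a treatment rests on the sheet names.

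Brassinosteroids are plant steroid hormones that promote cell elongation, vascular development and responses to light. In Arabidopsis they bind the receptor kinase BRI1 at the cell surface, which with its partner BAK1 leads to inactivation of the kinase BIN2 and to accumulation of the transcription factors BZR1 and BES1. These factors repress genes of hormone synthesis and activate many growth genes, and propiconazole lowers the hormone by blocking a cytochrome P450 step of its synthesis. None of the 54175 IDs (0) matched the 59048 genes of the reference table, so no gene of this pathway could be identified, the gene lists drawn up by function could not be applied, and the seedling label could not be checked against tissue markers. The results therefore describe genes by ID, level, length of locus and position.

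The seedlings with high BL for 8 h differed widely from those with low BL, in both directions. The difference was 1 or more, which is 2-fold or more, in 7480 genes (22.4% of 33405), and -1 or less in 6440 genes (19.3%). The other 19485 genes (58.3%) lay within 2-fold. The median difference was 0.02, with quartiles of -0.78 and 0.89. On the deposited scale the upper tail held more genes, with 943 at 3 or more against 460 at -3 or less. At 5 or more there were 157 genes, against 48 as far in the other direction. The lower tail reached slightly further, to -11.10 against 10.12.

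**Figure D1:**
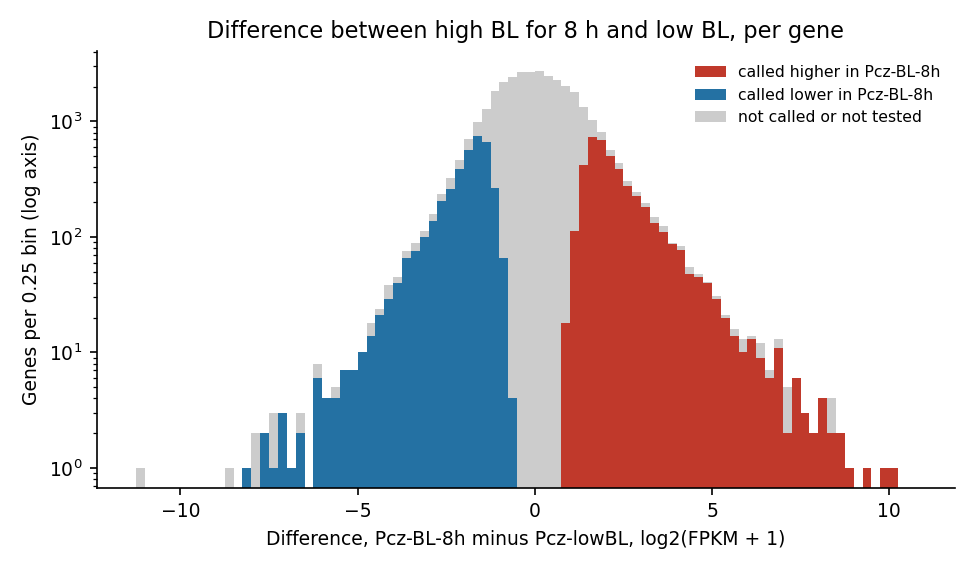
Number of genes per bin of 0.25 (log axis) by the difference, Pcz-BL-8h minus Pcz-lowBL, on log2(FPKM + 1), for 33405 genes, with genes called by the z test in colour. The distribution is centred near 0.02, and it holds 943 genes at 3 or more and 460 at -3 or less.

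The difference was tested gene by gene with a two-sided z test, from the authors' fold changes and from standard errors recovered as fold change over test statistic. Of 31814 genes tested, 4214 were called higher in Pcz-BL-8h (13.2%) and 3689 lower (11.6%) at a Benjamini-Hochberg adjusted p of 0.05 or less. The median log2 difference was 2.77 among the higher and -2.60 among the lower genes. The smallest difference called was 1.35 in size, with a median standard error of 0.687, so smaller differences could not be detected. Errors of both fold changes were treated as independent although the control libraries are in both, which makes the standard error too large. With 3 libraries a group the normal distribution of the z test is an approximation, so calls are given without single p-values. The split between directions depends on scaling: summed FPKM was 710735 in Pcz-BL-8h and 491555 in Pcz-lowBL, against 677073 and 819112 in the control columns of their tables. Scaling every column to the same sum moves a fold change difference without pseudocount by -0.81. On log2(FPKM + 1) the move depends on a gene's level, and the median became -0.67. The z test then called 2218 genes higher and 8263 lower, and 4515 genes were at least 2-fold higher and 13336 at least 2-fold lower. Without the control columns, the direct ratio of the treated groups put 6025 genes at least 2-fold higher and 8170 at least 2-fold lower, at a median of -0.19. Directions below are on the deposited scale unless stated.

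On the deposited scale both groups contributed to the higher calls, and mainly Pcz-BL-8h to the lower ones. Scaling to equal sums moves each group against its control, so that split depends on the scaling. Of summed FPKM, the lower genes held 1.52% in Pcz-BL-8h and 18.0% in Pcz-lowBL, against 7.75% and 7.71% in the control columns. The higher genes held 44.5% and 11.1%, against 26.7% and 26.8%. All values here describe genes chosen by that same contrast and support nothing further. The 4214 higher genes had a median level of 17.3 FPKM in Pcz-BL-8h and 2.67 FPKM in Pcz-lowBL. Their median change from control, on log2(FPKM + 1), was 1.14 in Pcz-BL-8h and -0.94 in Pcz-lowBL. By the authors' q of 0.05 or less, 3257 of them were above control in the Pcz-BL-8h table, where 25.8% of all tested genes were, and 3071 were below control in the Pcz-lowBL table, where 22.8% were. The 3689 lower genes had a median level of 1.26 FPKM in Pcz-BL-8h and 9.79 FPKM in Pcz-lowBL. Their median change from control was -1.36 in Pcz-BL-8h and 0.39 in Pcz-lowBL. By the authors' q, 3313 of them were below control in Pcz-BL-8h (30.7% of all tested genes) and 1443 above control in Pcz-lowBL (13.4% of all). The authors called 16 of the higher and 50 of the lower genes in neither table.

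The other 2 groups were not used to choose these genes, although they share the control libraries. The higher genes had a median change from control of -0.87 with Pcz alone and 0.38 after 1 h of high BL, at median levels of 2.76 and 11.4 FPKM. With Pcz alone the authors' test called 2636 of the 4116 tested below control and 323 above, beside 28.4% and 24.9% of all genes. After 1 h of high BL, 2025 of 4211 were called above and 760 below, beside 25.6% and 26.5% of all. The lower genes had a median change of 0.32 with Pcz alone and -0.43 after 1 h. Of these, 1616 of 3676 were called above and 683 below control with Pcz alone. After 1 h, 360 of 3689 were called above and 1928 below control. By these medians Pcz alone was on the side of Pcz-lowBL and 1 h of high BL was on the side of Pcz-BL-8h in both sets.

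Genes that were clearly present in 1 group and near the floor in the other were found in both directions. At 10 FPKM or more in Pcz-BL-8h and under 1 FPKM in Pcz-lowBL there were 396 genes, with medians of 18.3 and 0.375 FPKM and a control median of 2.61 FPKM in the Pcz-BL-8h table. Of these, 68 were at 10 FPKM or more in that control column and 95 were under 1. Among the same 396 genes, 294 were under 1 FPKM with Pcz alone and 213 were at 10 FPKM or more after 1 h of high BL. The 396 genes had medians of 0.343 FPKM with Pcz alone and 10.7 FPKM after 1 h. Over all 33405 genes these medians were 5.48 and 5.53 FPKM. In the opposite direction 359 genes were under 1 FPKM in Pcz-BL-8h and at 10 FPKM or more in Pcz-lowBL, with medians of 0.492 and 15.4 FPKM and a control median of 5.69 FPKM. Of these 359 genes, 92 were at 10 FPKM or more in control and 31 were under 1. Among the same genes, 181 were at 10 FPKM or more with Pcz alone and 24 after 1 h. Shares of all 33405 genes at these cut-offs are not given, so the counts describe the 396 and 359 genes only. The 359 genes had medians of 10.1 FPKM with Pcz alone and 2.80 FPKM after 1 h. Listed at 0 in Pcz-lowBL were 17 genes with 10 FPKM or more in Pcz-BL-8h, and listed at 0 in Pcz-BL-8h were 26 genes with 10 FPKM or more in Pcz-lowBL.

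The 2 genes with the largest positive difference among called genes were both abundant in control and nearly absent with low BL. Glyma17g32100 (chromosome 17, 35393135 to 35394302) had 2375 FPKM in Pcz-BL-8h and 1.59 FPKM in Pcz-lowBL. Control was 436 and 531 FPKM in the 2 tables, Pcz alone 0.583 FPKM and 1 h of high BL 404 FPKM. Of the 4 treated groups Pcz-BL-8h alone was above the control column of its own table. The difference was 10.12, and without a pseudocount 10.83 ± 0.999 (standard error; called by the z test). Fold changes in the authors' deposited table were 2.45 on the log2 scale for Pcz-BL-8h (q = 0.000181) and -8.38 for Pcz-lowBL (q = 0.000314).

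Glyma14g14220 (chromosome 14, 13954967 to 13956050) was likewise highest in Pcz-BL-8h and lowest with Pcz alone. It had 2908 FPKM in Pcz-BL-8h and 2.67 FPKM in Pcz-lowBL, with 538 and 657 FPKM in the control columns, 0.568 FPKM with Pcz alone and 597 FPKM after 1 h. The difference was 9.92, and without a pseudocount 10.38 ± 0.973 (standard error; called by the z test). The authors' deposited table gave log2 fold changes of 2.43 for Pcz-BL-8h (q = 0.000181) and -7.94 for Pcz-lowBL (q = 0.000314). The 2 loci spanned 1167 and 1083 bases, against a median of 3930 over all 33405 genes.

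The 2 genes with the largest negative difference among called genes were at about 1 FPKM or less with high BL for 8 h and at 349.6 FPKM or more with low BL. Glyma13g31605 (chromosome 13, 34002475 to 34002882) had 1.00 FPKM in Pcz-BL-8h and 693 FPKM in Pcz-lowBL, with 639.9 and 771 FPKM in the control columns. It stood at 2126 FPKM with Pcz alone and 3.44 FPKM after 1 h of high BL. The difference was -8.17, and without a pseudocount -9.17 ± 0.762 (standard error; called by the z test). The authors' deposited table gave a log2 fold change of -9.32 for Pcz-BL-8h but a q of 0.202, and -0.15 for Pcz-lowBL (q = 0.688). The call of this gene therefore rests on the deposited test statistic and was not made by the authors' own p-value. Its locus of 407 bases is short.

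Glyma02g37990 (chromosome 2, 43290224 to 43291465) had 0.604 FPKM in Pcz-BL-8h and 349.6 FPKM in Pcz-lowBL, against 152 and 182 FPKM in the control columns. With Pcz alone it had 11.7 FPKM and after 1 h of high BL 123 FPKM, so it was lowest at 8 h and highest with low BL. The difference was -7.51, and without a pseudocount -8.92 ± 1.01 (standard error; called by the z test). In the authors' deposited table its log2 fold change was -7.97 for Pcz-BL-8h (q = 0.000181) and 0.94 for Pcz-lowBL (q = 0.0481). Under the column headers, all 4 named genes would have the opposite sign. Genes with the 2 lowest differences of all, -11.10 and -8.73, had no z test and are not named. Counted from the lowest, Glyma13g31605 had rank 3 and Glyma02g37990 rank 6. The genes ranked between them did not meet the rule for naming.

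**Figure D2:**
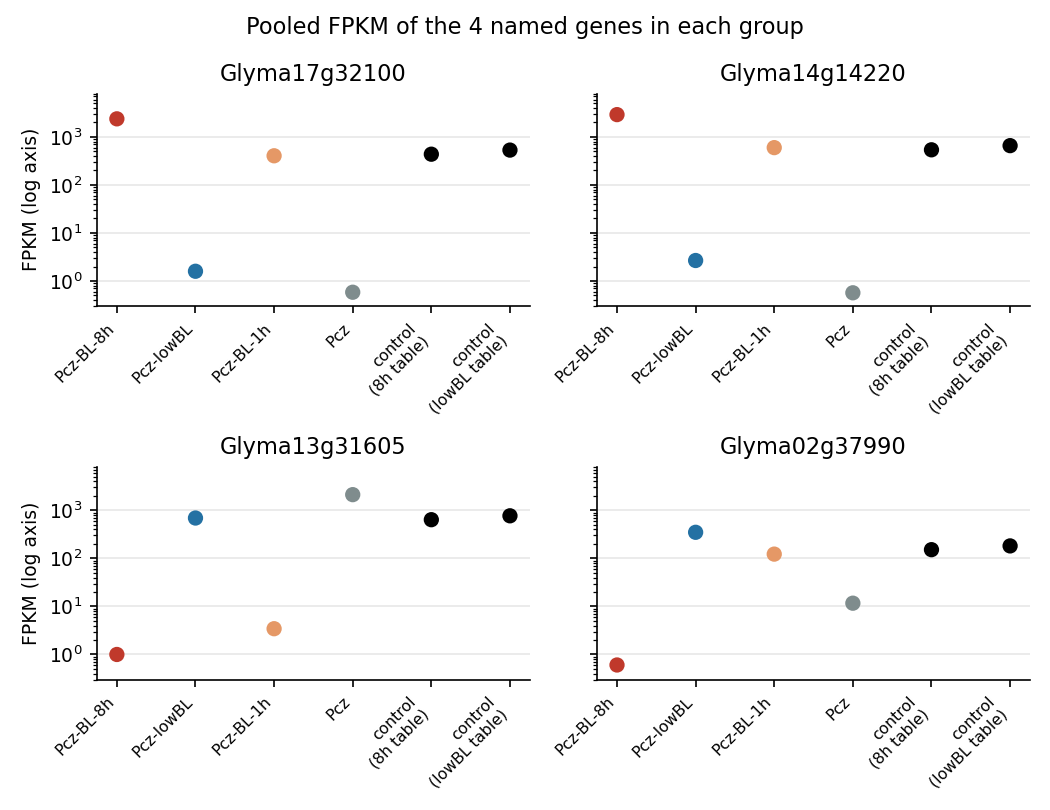
FPKM (log axis) of Glyma17g32100, Glyma14g14220, Glyma13g31605 and Glyma02g37990 in Pcz-BL-8h, Pcz-lowBL, Pcz-BL-1h, Pcz and the control columns of the Pcz-BL-8h and Pcz-lowBL tables, 1 pooled value per point with no replicate error. The first 2 genes are highest in Pcz-BL-8h at 2375 and 2908 FPKM, and the other 2 are lowest there at 1.00 and 0.604 FPKM.

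On the deposited scale more genes reached high levels in Pcz-BL-8h than in Pcz-lowBL. In Pcz-BL-8h 1050 genes reached 100 FPKM and in Pcz-lowBL 576 did, against 768 and 969 in the control columns of their tables. At 1000 FPKM or more there were 79 genes in Pcz-BL-8h and 19 in Pcz-lowBL, against 94 and 111 in control. The top 100 genes held 27.1% of summed FPKM in Pcz-BL-8h and 16.4% in Pcz-lowBL, against 30.6% and 30.7% in control. A share of 50% was held by 651 genes in Pcz-BL-8h and by 1950 genes in Pcz-lowBL, against 540 and 535 in control. The counts at 100 and 1000 FPKM change with the scaling of a column, and the shares do not. By the shares Pcz-BL-8h was closer than Pcz-lowBL to control, with no replicate error to set against the gap.

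**Figure D3:**
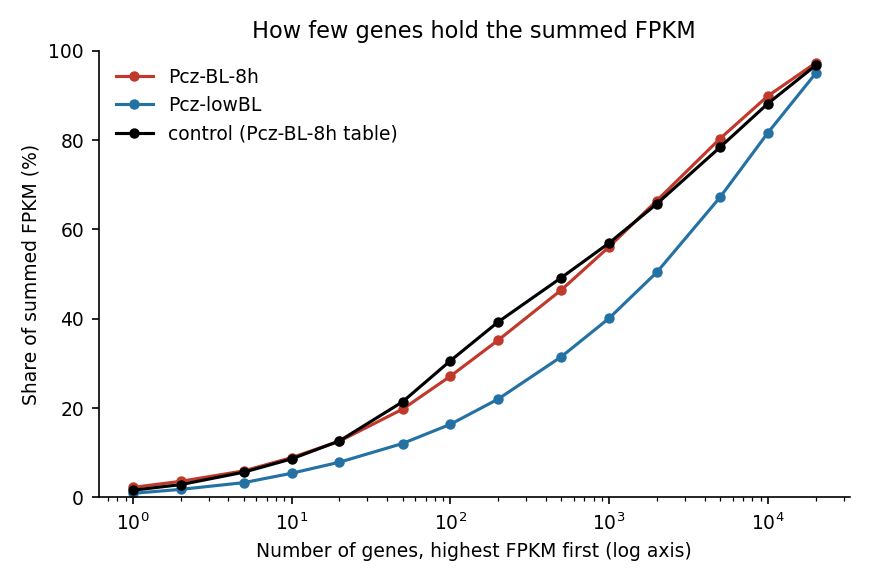
Share of summed FPKM (%) held by the genes of highest FPKM, against the number of genes (log axis), for Pcz-BL-8h, Pcz-lowBL and the control column of the Pcz-BL-8h table. The top 100 genes hold 27.1%, 16.4% and 30.6%, and the Pcz-lowBL curve lies lowest at every number of genes plotted.

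Grouped by control level, which nearly cancels from the difference, the most abundant genes were higher in Pcz-BL-8h than in Pcz-lowBL. For the 105 genes at 1000 FPKM or more in control the median difference was 1.99, and it was 1.19 with every column scaled to the same sum. Of these genes 79 were at least 2-fold higher and 8 at least 2-fold lower, and the z test called 43 higher and 5 lower of 104 tested. Their median change from control was -0.71 in Pcz-BL-8h and -2.79 in Pcz-lowBL, and 20 and 4 of them stood above control. With Pcz alone that median was -3.44 and after 1 h of high BL -1.80, and 11 and 3 of these genes stood above control. Among the 862 genes above 100 FPKM in control, 431 were at least 2-fold higher and 102 at least 2-fold lower, at a median difference of 1.00 (0.20 at equal sums). At 30 to 100 FPKM the median was 0.52 on the deposited scale but -0.26 at equal sums, and at 3 to 10 FPKM it was -0.14 and -0.87. The 3 to 10 FPKM band was the lowest of 6, and the relation with level was not monotone: the median was 0.33 below 1 FPKM, -0.03 at 1 to 3 and 0.07 at 10 to 30 FPKM (-0.07, -0.62 and -0.70 at equal sums). Below 1 FPKM, 32.1% of genes were at least 2-fold higher and 19.6% at least 2-fold lower. With control under 1 FPKM, these genes passed the filter mainly by being high in a treated group. Their median change from control was above 0 in both groups, 0.60 in Pcz-BL-8h and 0.29 in Pcz-lowBL. The values of this band therefore depend on that selection and support nothing further. Spearman's rho between control level and difference was 0.0389 over 33405 genes, a description across genes that share libraries. The gap between the highest and the lowest of these bands, above 100 and at 3 to 10 FPKM, was 1.14 on the deposited scale and 1.07 at equal sums.

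The difference also followed the length of the locus, which includes introns. Some adjacent genes are listed with the same locus length, such as 27231 bases for both Glyma01g00460 and Glyma01g00470. Locus length is therefore not always the length of the gene itself. In the eighth of genes with the shortest loci (105 to 1464 bases) the median difference was 0.67, and it was lower in each following band of 8, down to -0.71 in the eighth with the longest (8319 to 84742 bases). At least 2-fold higher were 39.9% of the shortest and 5.72% of the longest loci, and at least 2-fold lower were 17.1% and 36.5%. The z test called 828 higher and 226 lower of 3585 short-locus genes, and 110 higher and 1091 lower of 4094 long-locus genes. Higher genes had a median locus of 2648 bases and lower genes one of 5710 bases, against 4017 over all genes tested. Spearman's rho between locus length and difference was -0.31 over 33405 genes, likewise a description.

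Most of this gradient was in the Pcz-BL-8h table. From the shortest to the longest eighth, the median change from control ran over 0.36, 0.30, 0.14, 0.01, -0.09, -0.22, -0.40 and -0.66 in Pcz-BL-8h. In Pcz-lowBL it went the other way and less far, with -0.22 in the shortest and 0.04 in the longest eighth. With Pcz alone these ends were -0.19 and 0.19, and after 1 h of high BL -0.04 and -0.10. At equal sums the median difference was 0.13 in the shortest and -1.47 in the longest eighth, a gap of 1.60 against 1.38 on the deposited scale.

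**Figure D4:**
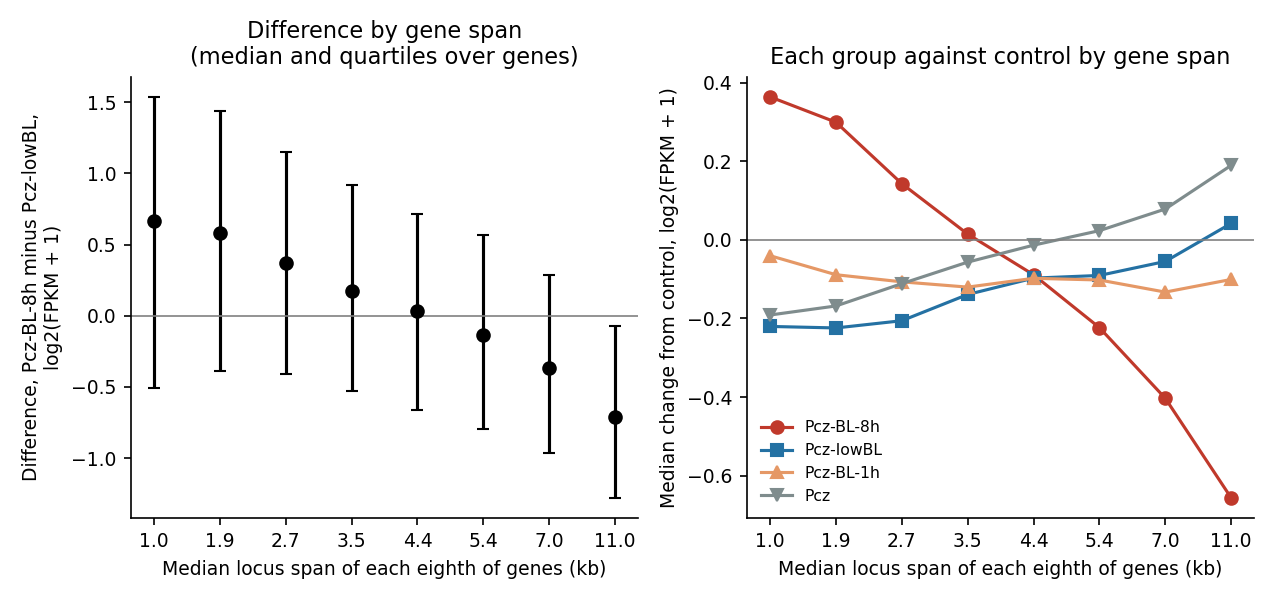
Left, median difference (Pcz-BL-8h minus Pcz-lowBL, log2(FPKM + 1)) with quartiles over genes as bars, in 8 bands of locus span, placed by the median span in kb. Right, median change from control in each group over the same bands; the Pcz-BL-8h line runs from 0.36 to -0.66, and the Pcz-lowBL line from -0.22 to 0.04.

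Length and level were associated, so both were set against each other. Within each of 6 bands of control level the shortest of 4 equal classes of loci (up to 2326 bases) had the higher median difference and the longest (6066 bases or more) the lower. The gap between these classes was 1.39 at up to 1 FPKM in control, 0.80 at 1 to 3, 1.11 at 3 to 10, 1.21 at 10 to 30, 1.69 at 30 to 100 and 1.93 above 100 FPKM. Genes at up to 1 FPKM in control passed the filter mainly through a treated group, so the gap of 1.39 depends on that selection. The highest median, 1.75, was that of 353 short-locus genes above 100 FPKM in control. Their median change from control was -0.13 in Pcz-BL-8h and -1.57 in Pcz-lowBL. Long-locus genes above 100 FPKM numbered 95, and their medians were -1.16 in Pcz-BL-8h and -0.88 in Pcz-lowBL. The grouping by length was chosen after the data were seen.

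**Figure D5:**
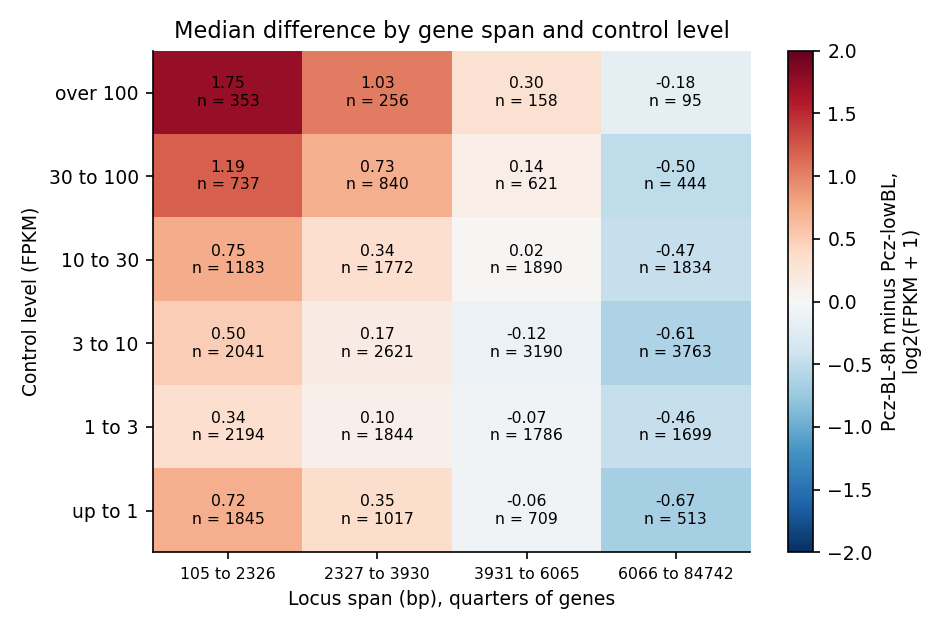
Median difference (Pcz-BL-8h minus Pcz-lowBL, log2(FPKM + 1)) of genes grouped by 4 equal classes of locus span in bases (columns) and by control level in FPKM (rows), with the number of genes in each cell. In every row the median is highest in the shortest and lowest in the longest class, with 1.75 and -0.18 in the top row.

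Between chromosomes the difference was spread nearly evenly, with small local groups and a slight gradient along the chromosomes. At 0 to 10% of the chromosome from its nearer end, 23.4% of genes were at least 2-fold higher and 18.2% at least 2-fold lower. At 30 to 40% these shares were 21.9% and 22.5%, and at 40 to 50% they were 19.7% and 20.3%. Over the 20 chromosomes the median lay between -0.08 and 0.09, with 19.5% to 24.5% of genes at least 2-fold higher and 17.4% to 21.6% at least 2-fold lower. Adjacent here means next to each other among genes that passed the filter, so genes left out may lie between them. Neighbouring genes were weakly alike: over 33294 such pairs Spearman's rho was 0.11. After a gene that was at least 2-fold higher the next one was too in 27.4% of cases, and after a gene that was at least 2-fold lower the next one was too in 26.3%. How reads shared by near-identical genes were counted is not given, so values of similar neighbours are uncertain. Adjacent genes that were all at least 4-fold apart in the same direction formed 30 runs of 3 or more that were higher (99 genes) and 30 that were lower (101 genes).

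The longest runs had 5 genes each, and these 4 were chosen for their differences. Genes that failed the filter may lie within a run. On chromosome 15 (44217517 to 44334891) 5 adjacent genes had 5.70 to 197 FPKM in Pcz-BL-8h and 0 to 3.20 FPKM in Pcz-lowBL. The same genes had 36.3 to 108 FPKM after 1 h of high BL and at most 0.0514 FPKM with Pcz alone. All 3 of them that could be tested were called higher. On chromosome 20 (33422581 to 33436240) 5 adjacent genes had 0 to 1.11 FPKM in Pcz-BL-8h and 7.12 to 210.1 FPKM in Pcz-lowBL, and the 1 with a z test was called lower. With Pcz alone these had 3.97 to 199.7 FPKM. The other 2 runs lay on chromosome 6. At 17986871 to 17997193 the genes had 0.328 to 1.81 FPKM in Pcz-BL-8h and 6.21 to 49.1 FPKM in Pcz-lowBL, with 3 of 5 called lower. At 44647111 to 44723980 they had 0.148 to 14.1 FPKM in Pcz-BL-8h and 5.81 to 119 FPKM in Pcz-lowBL, with 5 of 5 called lower.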

How the data were processed

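Per the file headers, the full tables have Cuffdiff's format. Its version, the aligner, genome build, annotation and treatment of multiply mapped reads are not stated, so genes with close copies are uncertain and coordinates are as the files give them. The authors deposited FPKM pooled over the libraries of a group, log2 fold changes, a test score (Cuffdiff's statistic) and p-values with their q-values. Library depth is unknown. No label ties the 3 libraries of a group to separate plants, so the errors may be technical.

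From these, differences of log2(FPKM + 1) changes and a two-sided z test on the deposited fold changes were computed in Python 3.11.15 with scipy 1.17.1, with Benjamini-Hochberg adjustment over 31814 genes. A standard error was fold change over test statistic. The z test was run on simulated data with few changed genes. There it made no false call, found most of the larger planted differences and missed most of the smaller ones. The simulated errors were normal, had the standard errors that the test uses and were partly shared between the tables. Few false calls were thus built in, and the simulation cannot check the standard errors or the normal distribution for the measured data. Called genes in the authors' tables had a q of 0.05 or less and test status OK.

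The comparison, lists and rules were chosen with earlier results of these data known. Named were the 2 genes with the largest positive and the 2 with the largest negative difference among z-called genes at 2-fold or more and 10 FPKM or more in 1 of the 4 columns. Where no gene names are paired with IDs, the files' IDs are used. Equal-sum scaling, removal of control variance and the groupings by locus length and level were added after the data were seen.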

Additional observations from a re-analysis of the deposited data

How the results depend on the processing

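No paired analysis was possible because the tables hold 1 pooled value per group, so neither a replicate block nor leaving out a library was run. Alternatives for gene lists were not run, as no ID matched a name. The cause of each change below was not tested, except where the setting itself sets it. Counts are given as higher and lower in Pcz-BL-8h than in Pcz-lowBL. Of 2-fold differences, 7480 and 6440, a pseudocount of 5 FPKM left 3992 and 2292, which follows from its size. Assigned by column header, the tables gave 4415 and 3268, and columns of equal sum gave 4515 and 13336. The split was also turned by the direct ratio of treated FPKM, to 6025 higher and 8170 lower. The median difference of 0.02 became -0.19 with the direct ratio and -0.67 with columns of equal sum. The z test called 4214 and 3689 genes. It called 2741 and 2223 with standard errors from the deposited p, where 19473 genes could be tested. That setting leaves out genes at the smallest deposited p in either table, so its counts are of fewer genes. At a threshold of 0.01 the z test called 2672 and 2198. By column header it called 1689 and 896, and with columns of equal sum 2218 and 8263. With 0.5 of each variance taken as control and removed, it called 7363 and 6745. With p taken from the test statistic as normal, the authors' calls against control numbered 4764 higher and 5915 lower in Pcz-BL-8h (8943 and 10620 by their q), and 1992 and 3531 in Pcz-lowBL (4723 and 8074). Assignment by header, which sets the sheet Pcz-BL-1h against the sheet Pcz-BL-8h, reversed the named genes, to -2.84 for Glyma17g32100, -2.57 for Glyma14g14220, 0.88 for Glyma13g31605 and 6.01 for Glyma02g37990. It also reversed the gap between shortest and longest loci (from 1.38 to -0.92) and that between the bands above 100 and at 3 to 10 FPKM (from 1.14 to -0.83). Every other setting run on these 6 values kept their direction, and 10 values of the named genes moved in size. Another 32 values stayed close to those reported, counts within 1.5 times (those of the direct ratio included) and medians within 0.1. Unknown depth and the lack of a spread between libraries limit every value.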

Other observations

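The authors' short lists hold only genes with a log2 fold change over 2 in size at the smallest deposited p of 5e-05. The Pcz-BL-8h list has 3981 genes, 1859 above and 2122 below control, and the Pcz-lowBL list 2478, 948 above and 1530 below. Of the listed genes with a z test, that test of the difference called 1119 higher and 1612 lower of 3824 from the Pcz-BL-8h list, and 1102 higher and 337 lower of 2283 from the Pcz-lowBL list. Over all genes 13.2% were called higher and 11.6% lower. The lists were picked on fold changes that the difference also uses, so these counts are a description and support nothing.

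The Pcz table carries 59 gene IDs in an extra column with no header. All 59 passed the filter of 1 FPKM. In each of the 4 tables, all of which share the control libraries, the authors' test called 26 of them above and 33 below control. Over all genes tested in a table, 13.4% to 25.8% were called above and 22.8% to 30.7% below. Their median difference between Pcz-BL-8h and Pcz-lowBL was -0.05, with 6 genes at least 2-fold higher and 7 at least 2-fold lower, beside 22.4% and 19.3% of all genes. What the column was for is not stated. All 59 IDs were called in every table, and whether they were picked by these calls is not stated either. The counts of calls therefore describe the list and support nothing.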
